A study of Rattus norvegicus with 12 samples.

Results

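Cholesterol and fatty acid synthesis genes were followed across the pituitary and hypothalamus of fetal rats exposed to TCDD. The set of 31 genes was taken from the pathways by name, with earlier results of these data known. It holds 7 enzymes of the mevalonate steps and 11 enzymes from squalene synthesis onward. The others are 5 regulators of the sterol response and 8 genes of fatty acid synthesis and desaturation. Every probe whose platform symbol is one of these names, including an older alias of Cyp51, Sc5d and Msmo1, was used. Of the 31 genes, 26 had a probe, out of 13337 genes with a symbol on the array, and 25 could be tested. Hmgcs1, Mvk, Lss, Insig1 and Fasn had no probe by symbol, gene identifier or accession, so nothing can be said of them here. The probe of Elovl6, a fatty acid elongase, was detected on 0 of 12 arrays and was not tested.

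The study looked for target genes behind a reduction of the gonadotropin β-subunits in the fetus. Pregnant Wistar rats received TCDD (2,3,7,8-tetrachlorodibenzo-p-dioxin, the best-known dioxin and a ligand of the aryl hydrocarbon receptor) by mouth on gestational day 15. The series text gives 1 µg/kg in corn oil, while the sample labels give 1 mg/kg, and this conflict could not be settled. RNA was taken from male fetuses on gestational day 20, in 4 groups of 3 samples: pituitary after TCDD (replicates 1, 2 and 5), pituitary control (1, 2 and 3), hypothalamus after TCDD (1, 3 and 4) and hypothalamus control (1, 3 and 5). The labels name no genetic change, do not state what the control dams received, and do not state whether each replicate is another dam's litter or a pool. The p-values thus rest on the scatter of these replicates, which could be technical. The RNA of each was read on an Illumina RatRef-12 array, on which bead-bound probes report the abundance of a transcript as fluorescence.

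Cholesterol is built from acetyl units through mevalonate, isoprenoid diphosphates, squalene and lanosterol, and its supply within the brain comes largely from local synthesis. When membrane sterol falls, SCAP escorts SREBP proteins from the endoplasmic reticulum to be cleaved, and the released fragment switches on most genes of the route, while INSIG proteins hold the complex back when sterol is plentiful. SREBP acts with the CCAAT-binding factor NF-Y, and one of its forms also drives fatty acid synthesis, which starts from citrate-derived acetyl-CoA. The aryl hydrocarbon receptor with its partner ARNT binds DNA at elements with the core GCGTG.

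Promoters are shown for Idi1, Fdps and Msmo1, since both SREBP and the dioxin receptor act through short DNA motifs. None of these genes passed the test for TCDD in the pituitary with all arrays weighted alike. Idi1 and Fdps passed without TCDD replicate 5, and Idi1 and Msmo1 when arrays were weighted by their scatter. Sqle also passed without TCDD replicate 5 but had no window. They are RefSeq windows of the GRCr8 build, the 250 bases before the annotated start, printed in the direction of the gene. Capitals mark the CCAAT box (CCAAT, or ATTGG where it lies on the other strand) and the receptor core (GCGTG, or CACGC where it lies on the other strand). Idi1 lies on the minus strand at chr17:66547525-66547774, Fdps on the minus strand at chr2:176804817-176805066 and Msmo1 on the plus strand at chr16:29746863-29747112.
Idi1: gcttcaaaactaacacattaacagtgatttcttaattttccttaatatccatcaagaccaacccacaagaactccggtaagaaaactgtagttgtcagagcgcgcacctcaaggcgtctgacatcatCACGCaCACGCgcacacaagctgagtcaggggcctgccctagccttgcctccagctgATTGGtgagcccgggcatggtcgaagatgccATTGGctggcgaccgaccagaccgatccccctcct
Fdps: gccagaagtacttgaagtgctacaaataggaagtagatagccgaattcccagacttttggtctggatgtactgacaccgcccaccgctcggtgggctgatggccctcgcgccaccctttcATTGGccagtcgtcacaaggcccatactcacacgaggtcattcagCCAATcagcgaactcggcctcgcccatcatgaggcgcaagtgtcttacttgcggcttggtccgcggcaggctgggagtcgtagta
Msmo1: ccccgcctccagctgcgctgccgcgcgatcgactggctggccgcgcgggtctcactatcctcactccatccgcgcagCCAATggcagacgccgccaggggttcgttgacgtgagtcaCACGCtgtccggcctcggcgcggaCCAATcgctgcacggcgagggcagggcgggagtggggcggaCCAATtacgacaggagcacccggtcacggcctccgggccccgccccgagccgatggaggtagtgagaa
The Idi1 window held CCAAT boxes 66 and 35 bases before the start and receptor cores 123 and 117 bases before it. In Fdps the CCAAT boxes began 130 and 85 bases before the start, with 0 receptor cores. Msmo1 held CCAAT boxes at 173, 109 and 68 bases and a receptor core at 133 bases.

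Windows existed for 25 of the 31 genes, Hmgcs1, Mvk, Lss and Insig1 among them. Sqle, Fdft1, Pmvk, Fasn, Acaca and Elovl6 had none. Both strands were searched for 3 motifs. CCAAT occurred in 18 of the 25 windows (72.0%), against 34.0% of all 33469 windows in the table. GCGTG occurred in 14 of the 25 (56.0%), against 25.9% of all. A known SREBP site pattern, TCACNCCAC with N for any base, occurred in 0 of the 25 windows and in 0.974% of all. Only this pattern was searched, and only within these short windows. The 0 matches thus do not show that the genes lack SREBP sites. Members were counted by 1 window a gene, while the shares of all windows were not reduced to 1 a gene or limited to a kind of gene. The shares are thus not strictly alike, and enrichment was not tested. These are matches of letters and not sites shown to be bound.

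Of 22523 probes, 13018 were tested, those detected with p below 0.05 on at least 3 arrays, and all levels below are normalized log2 intensities. Detected probes made up 47.4% to 54.5% of each array, and the number of arrays limits the precision. The tissue labels fitted the markers: 8 of 8 tested anterior pituitary endocrine genes were higher in control pituitaries and 9 of 10 hypothalamic genes were lower there. Exposure showed in the pituitary as Cyp1a1, the main dioxin-induced monooxygenase, at 11.47, 11.49 and 11.07 in TCDD pituitaries, while 0 of 3 control pituitaries detected it, a difference of at least 57.3-fold. All 4 tested targets of the receptor passed upward in TCDD pituitaries. In the hypothalamus 0 of these 4 passed, though all 4 estimates were positive. The largest there was that of Cyp1b1, at 8.71, 9.29 and 8.79 in TCDD hypothalami, against 7.15, 7.57 and 5.95 in control hypothalami (2.04 ± 0.32, limma adjusted p = 0.111).

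Pituitary TCDD replicate 5 stood apart. On it 292 probes exceeded the mean of the other 5 pituitary arrays by over 1 log2 unit and 50 lay as far under it, while the same counts on each of the other pituitary arrays were 19 to 39 and 25 to 47. Of the 25 tested members 21 lay above the mean of the other arrays there. The same count was 17, 16 and 19 on control replicates 1, 2 and 3, and 4 and 1 on TCDD replicates 1 and 2. The share over all probes was not counted. Of the neuron markers 7 of 8 were above the control mean on replicate 5, with a median difference of 1.46. On TCDD replicates 1 and 2 that median was −0.41 and −0.39. The summed neuron signal was 15784, 14585 and 54406 on TCDD replicates 1, 2 and 5, against 16339 to 22363 on control pituitaries, and all 8 markers passed the detection filter. The 5 tested markers of oligodendrocytes and Schwann cells had a median 1.11 above the control mean on replicate 5, against 0.16 and 0.29 on replicates 1 and 2, and summed signals of 1514, 1581 and 3181 on replicates 1, 2 and 5, against 1295 to 1715 on control pituitaries. Radial glia and astrocyte markers had a median of 0.07 on replicate 5, with 3 of 6 below the control mean. Their summed signal was 9107 there, against 3201 to 6621 on control pituitaries. Hypothalamus markers had a median of −0.20 there, with 6 of 10 below the control mean. Whether any of these cell types carries the members' signal on that array was not tested. The estimates of the members and the counts and medians of their lists in the pituitary are therefore given with and without it.

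In TCDD pituitaries the sterol enzymes lay mostly below controls on 2 arrays and above them on the third, and no member passed the test over all 3. Of 25 tested members 0 passed, where 0.668% of all tested probes did (limma, 4 group means over 12 arrays, Benjamini-Hochberg adjusted p below 0.05). At an unadjusted p below 0.05 there were 3 members, against 11.5% of probes. The median log2 fold change of the 15 sterol enzymes was −0.21, with 13 of 15 negative, while that of the 6 fatty acid genes was −0.02 and that of the 4 regulators 0.03. Over all tested probes the median was −0.01 and 51.3% were negative. Without replicate 5 the median was −0.40 for sterol enzymes, without replicate 1 it was −0.04 and without replicate 2 it was −0.13. Skeletal muscle markers also fell in TCDD pituitaries, with 4 of 6 passing. Their medians on TCDD replicates 1, 2 and 5 were −1.07, −1.23 and −0.63 from the control mean. Their summed signals were 594, 503 and 872, against 942 to 1502 in control pituitaries and 1968 to 2385 in control hypothalami. Whether they come from attached tissue was not tested. Of the endocrine markers 4 of 8 fell. Without replicate 5, 4 of 6 muscle markers and 4 of 8 endocrine markers passed, all lower, with medians of −1.15 and −0.68. In bulk tissue, fewer cells of a type and less RNA per cell cannot be told apart. The part of these cell types in the members' values was not tested.

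**Figure D1:**
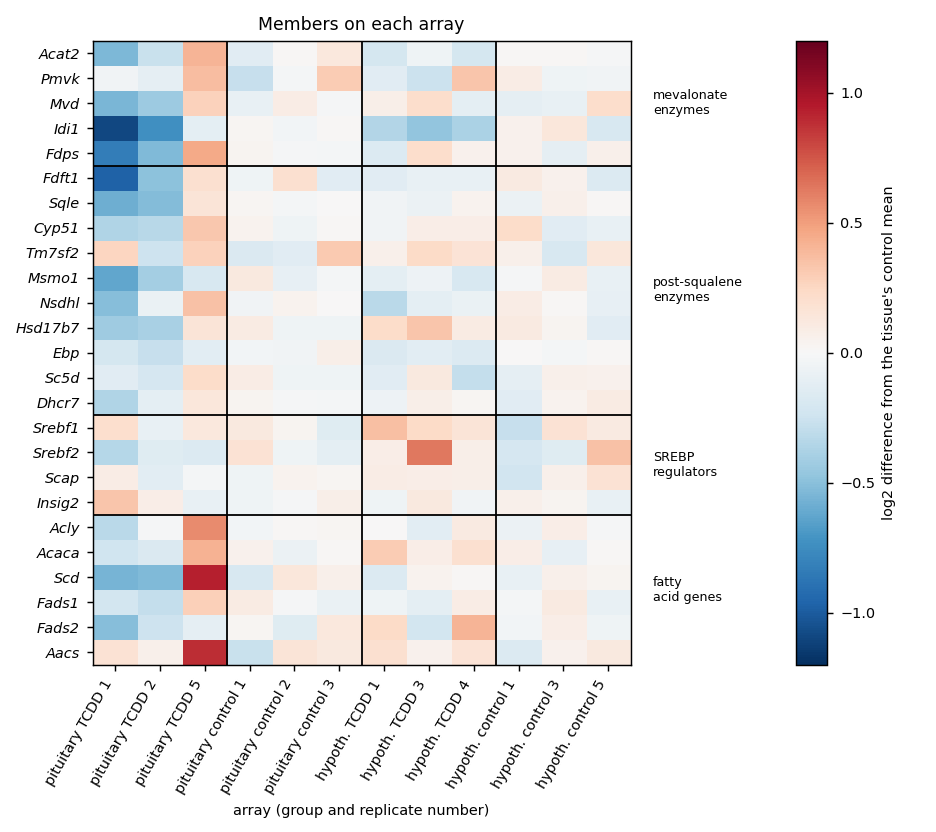
Each cell is the log2 difference of a tested member (rows, grouped by role) from the mean of the 3 control arrays of the same tissue, for each of the 12 arrays (columns). The sterol rows are mostly blue on pituitary TCDD replicates 1 and 2 and mostly red on replicate 5, with Idi1 at −1.09, −0.74 and −0.12.

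Among the mevalonate enzymes, Idi1, the isomerase that balances the isoprenoid building blocks, had the largest difference. Its levels were 9.01, 9.36 and 9.98 in TCDD pituitaries, against 10.12, 10.07 and 10.11 in control pituitaries. All 3 TCDD arrays lay below all 3 controls, but the control values span far less than the TCDD values. The log2 fold change was −0.65 ± 0.19 (SE), or 1.57-fold lower, with limma adjusted p = 0.188. Before normalization the deposited intensities were 613, 841 and 1181 in TCDD pituitaries, against 1183, 1136 and 1403 in control pituitaries, so replicate 5 lay inside the control range on that scale.

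Fdps, which makes farnesyl diphosphate, the branch point to squalene, showed the split among TCDD arrays most plainly. It read 9.16, 9.46 and 10.44 in TCDD pituitaries, against 10.01, 9.98 and 9.96 in control pituitaries. Replicates 1 and 2 were below and replicate 5 above every control. The estimate over all arrays was −0.30 ± 0.24 (limma adjusted p = 0.705). Mvd, the mevalonate diphosphate decarboxylase, split the same way at 9.08, 9.18 and 9.90, against 9.54, 9.71 and 9.62 in controls. So did Acat2, the thiolase that joins acetyl-CoA units, at 11.42, 11.69 and 12.37, against 11.82, 11.97 and 12.09. Pmvk, the phosphomevalonate kinase, did not: its levels were 7.75, 7.68 and 8.16 in TCDD pituitaries and 7.51, 7.77 and 8.09 in controls, with ranges that overlap.

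Of the enzymes from squalene onward, Msmo1, Sqle and Ebp carried the smallest p-values. Msmo1, a monooxygenase of sterol demethylation, read 9.72, 9.94 and 10.15 in TCDD pituitaries, against 10.46, 10.25 and 10.32 in control pituitaries. All TCDD arrays were lower, and the estimate was −0.41 ± 0.12 (limma adjusted p = 0.176). Ebp, the sterol isomerase, was also lower on all TCDD arrays, at 9.32, 9.26 and 9.40 against 9.50, 9.49 and 9.60 in controls, by a small margin (−0.21 ± 0.08, limma adjusted p = 0.353). Sqle, squalene epoxidase, a rate-limiting step, read 9.78, 9.86 and 10.53 in TCDD pituitaries, against 10.40, 10.36 and 10.37 in control pituitaries. Its controls lay within a narrow band that replicate 5 exceeded, and the estimate was −0.32 ± 0.16 (limma adjusted p = 0.470).

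Fdft1, squalene synthase, read 8.40, 8.88 and 9.56 in TCDD pituitaries, against 9.32, 9.56 and 9.23 in control pituitaries, an estimate of −0.42 ± 0.22 (limma adjusted p = 0.501). Hsd17b7, the ketoreductase of sterol demethylation, read 6.09, 6.13 and 6.67, against 6.61, 6.47 and 6.47 in controls. In both genes replicates 1 and 2 lay below every control and replicate 5 lay within or above the control range. Cyp51, the lanosterol demethylase, Dhcr7, the reductase of the last step, Nsdhl, a dehydrogenase of the demethylation complex, and Sc5d, a sterol desaturase, had estimates of −0.12, −0.11, −0.08 and −0.04. The Cyp51 probe was dim, detected on 1 of 3 TCDD pituitaries and on every control. Tm7sf2, a sterol reductase, has 2 probes, of which the brighter gave 0.10 ± 0.17 and the other −0.04 ± 0.18, so they differ in sign within their errors.

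The regulators showed no shared direction in the pituitary. Srebf2, which encodes the SREBP form that favours sterol genes, read 5.73, 5.93 and 5.91 in TCDD pituitaries, against 6.24, 6.02 and 5.96 in control pituitaries. All TCDD arrays were lower, with an estimate of −0.22 ± 0.18 (limma adjusted p = 0.707). Srebf1, which encodes the forms that favour fatty acid genes, overlapped at 9.38, 9.09 and 9.32 against 9.30, 9.21 and 9.03 in controls (0.08 ± 0.13). Insig2, which retains SCAP in the endoplasmic reticulum, read 10.19, 9.94 and 9.77, against 9.81, 9.85 and 9.93 in controls. It was the only member with replicates 1 and 2 above every control, a pattern found in 17% of probes, and replicate 5 was its lowest pituitary array. Its estimate was 0.10 ± 0.11 and Scap stood at −0.02 ± 0.11.

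Among fatty acid genes the spread between TCDD arrays was widest in Scd, the stearoyl-CoA desaturase. It read 7.63, 7.65 and 9.12 in TCDD pituitaries, against 7.99, 8.32 and 8.24 in control pituitaries. The group SD was 0.85 with TCDD and 0.17 in controls, and the estimate of −0.05 ± 0.30 had limma adjusted p = 0.973. Aacs, which activates acetoacetate for lipid synthesis, read 9.06, 8.96 and 9.79, against 8.62, 9.05 and 9.02 in controls (0.37 ± 0.19, limma adjusted p = 0.50), its highest array again being replicate 5. Fads2, a desaturase of polyunsaturated fatty acids, read 6.49, 6.75 and 6.89, against 7.02, 6.85 and 7.13 in controls (−0.29 ± 0.16). Acly, ATP-citrate lyase, Acaca, acetyl-CoA carboxylase, and Fads1, the partner desaturase, had estimates of 0.08, 0.01 and −0.07 over all arrays and of −0.16, −0.20 and −0.26 without replicate 5, so that Acly and Acaca turned sign. Acaca was detected on only 1 of 3 arrays in each pituitary group.

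**Figure D2:**
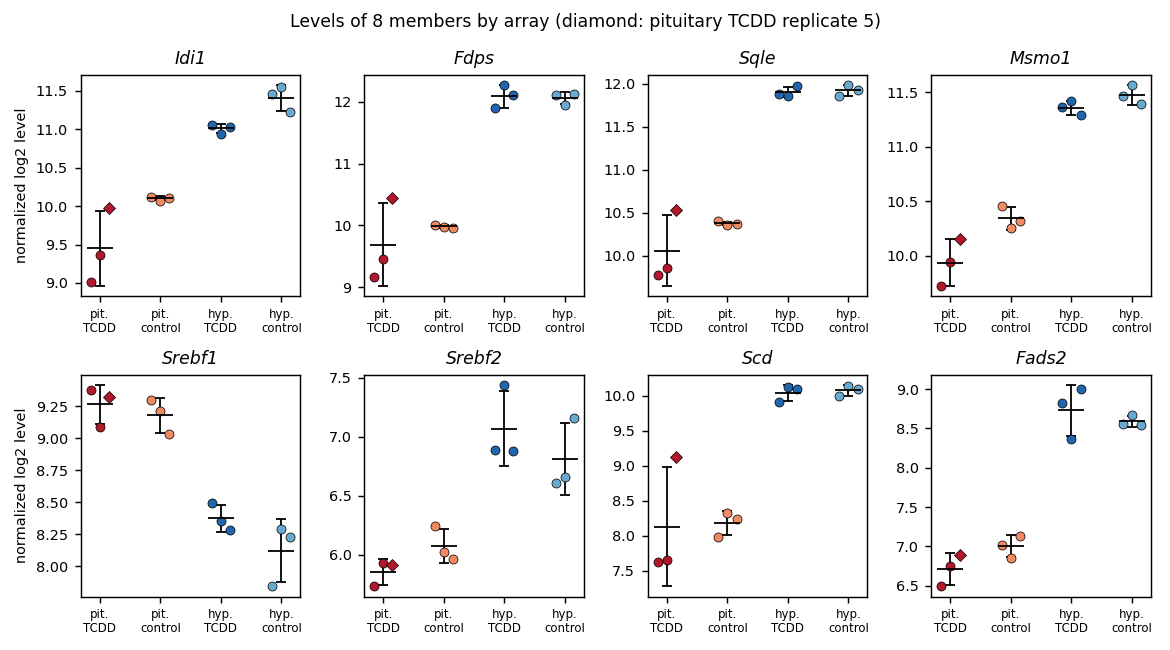
Points are normalized log2 levels on single arrays for 8 members in the 4 groups, with the mean and SD of each group (n = 3), and the diamond is pituitary TCDD replicate 5. In Fdps, Sqle and Scd the diamond lies above every control pituitary while the other TCDD pituitaries lie below them.

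Low levels on TCDD replicates 1 and 2, and a high level on replicate 5, were each found in most members. The 2 patterns were counted apart, and they do not cover the same members. On TCDD replicates 1 and 2 together, 18 of 25 members lay below every control pituitary, 13 of 15 sterol enzymes and 4 of 6 fatty acid genes among them, where 16.1% of all probes did. Replicate 1 was the lowest of the 6 pituitary arrays for 16 of 25 members, against 16.6% of probes. Replicate 5 was the highest for 15 of 25, of which 10 were sterol enzymes and 5 fatty acid genes, against 18.3% of probes. The median difference of sterol enzymes from the control mean was −0.51, −0.33 and 0.22 on replicates 1, 2 and 5, and that of fatty acid genes −0.28, −0.21 and 0.49. Counting all 3 TCDD arrays, 4 of 25 members (Ebp, Idi1, Msmo1 and Srebf2) lay below every control, where 10.8% of probes did, and 0 lay above every control, where 9.16% did.

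Without replicate 5, which leaves 2 TCDD arrays against 3 controls, 3 of 25 members passed the test, all lower, where 0.698% of probes passed and 0.341% passed downward. Idi1 fell by 0.92 ± 0.13 on the log2 scale (1.89-fold, limma adjusted p = 0.00649), Sqle by 0.56 ± 0.09 (adjusted p = 0.0181) and Fdps by 0.68 ± 0.13 (adjusted p = 0.0386). At an unadjusted p below 0.05 there were 14 members, against 10.6% of probes. Next in order came Fdft1 (−0.73, adjusted p = 0.0599), Msmo1 (−0.52, 0.0684) and Scd (−0.55, 0.0708), which did not pass. Fdps and Fdft1 were singled out after their values were seen. The sterol median was −0.40, with 14 of 15 negative, and the fatty acid median −0.23, with 5 of 6 negative, against 0.00 over all probes, of which 49.5% were negative. The median of the 4 regulators was 0.02, and 0 of 4 passed. With all arrays kept but weighted by their scatter, replicate 5 received a weight of 0.46, and 2 of 25 members, Idi1 (−0.79, limma adjusted p = 0.0175) and Msmo1 (−0.47, 0.0362), passed as lower, where 1.77% of all probes passed and 0.891% passed downward. Neuron markers without replicate 5 had a median of −0.40 and 0 of 8 passed.

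The other sterol enzymes had smaller estimates without replicate 5. Mvd stood at −0.50, Acat2 at −0.41, Hsd17b7 at −0.40, Cyp51 at −0.34, Nsdhl at −0.30, Ebp at −0.25, Dhcr7 at −0.24 and Sc5d at −0.17. Pmvk turned sign, at −0.08 without that array against 0.07 with it, and Tm7sf2 stood at 0.01. Of the regulators Srebf2 stood at −0.24, Insig2 at 0.20, Srebf1 at 0.05 and Scap at −0.02. Among fatty acid genes Fads2 stood at −0.38 and Aacs at 0.11.

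**Figure D3:**
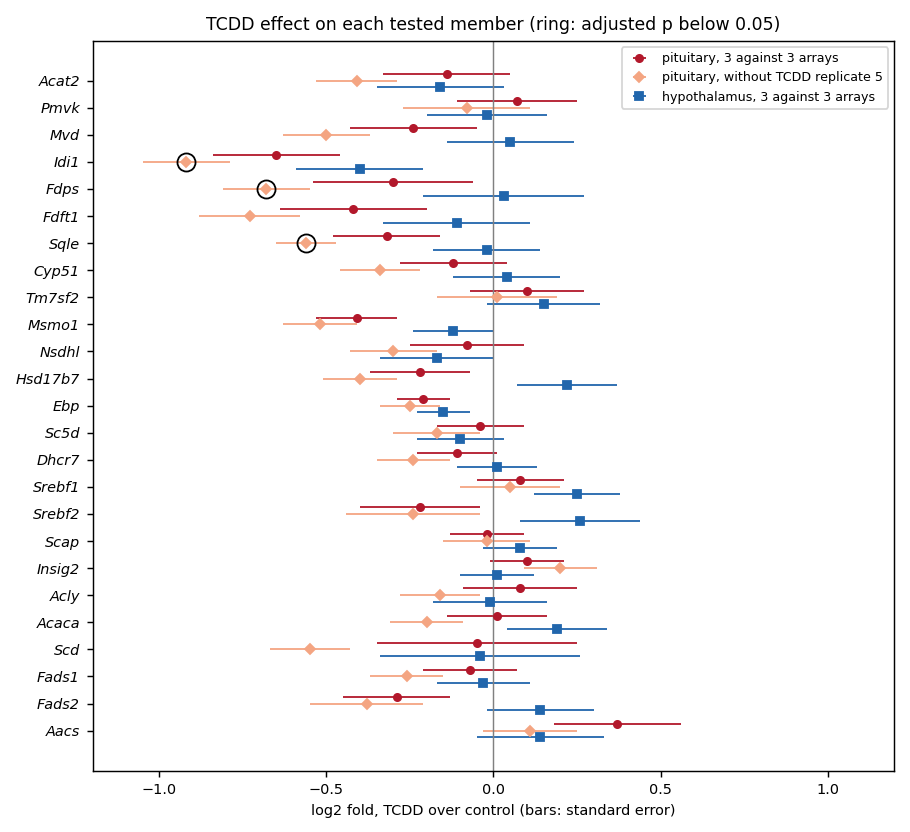
The log2 fold change of TCDD over control with its standard error is shown for each tested member, in the pituitary with 3 TCDD arrays, in the pituitary without TCDD replicate 5, and in the hypothalamus. Rings mark limma adjusted p below 0.05, which only Idi1, Fdps and Sqle reach, and only without replicate 5.

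**Figure D4:**
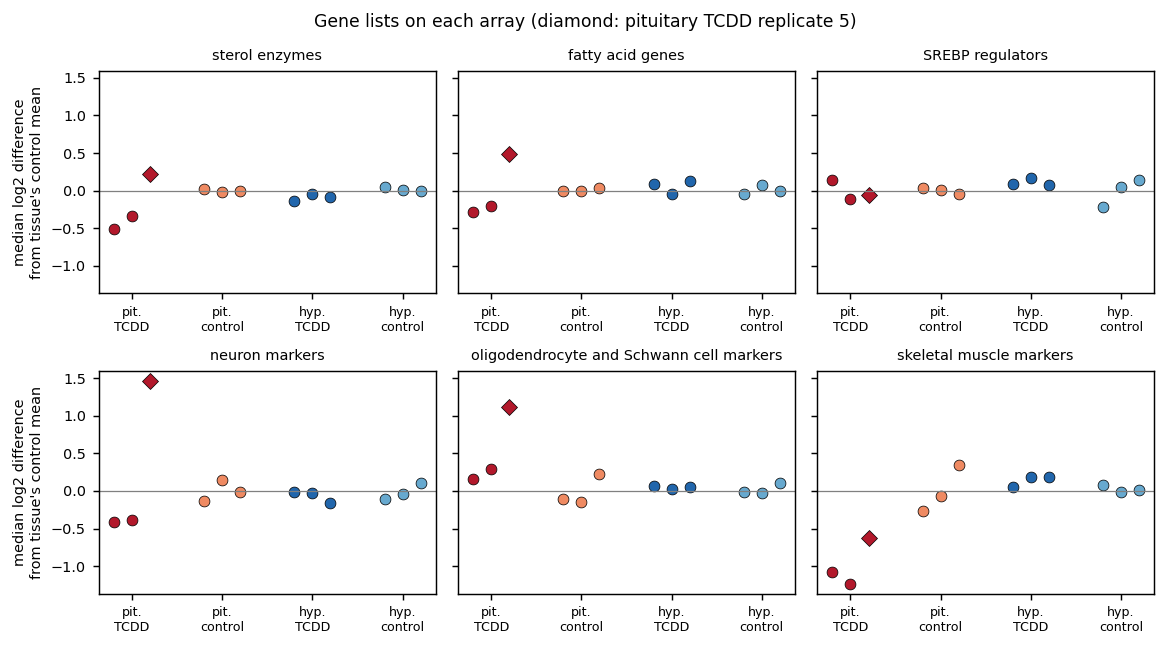
Points are the median log2 difference of a gene list from the control mean of its tissue on each array, for 3 member lists and 3 marker lists, with pituitary TCDD replicate 5 as a diamond. On that array sterol enzymes (0.22), fatty acid genes (0.49), neuron markers (1.46) and oligodendrocyte and Schwann cell markers (1.11) all lie above the other pituitary TCDD arrays.

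Genes around the pathway were counted from lists of their own. Of 13 tested genes for sterol uptake, transport and the liver X receptors, the oxysterol sensors, 0 passed in TCDD pituitaries, the smallest p-values belonging to Tmem97, a sterol-binding membrane protein (−0.46 ± 0.13, limma adjusted p = 0.188), and Abcg1, a sterol exporter (0.34 ± 0.12, 0.309). Of 9 other fatty acid genes and 3 other sterol genes 0 passed, Slc25a1, the mitochondrial citrate carrier, standing at −0.20 ± 0.13. Without replicate 5 these 3 lists again held 0 genes that passed, with Tmem97 at −0.60 ± 0.13 (limma adjusted p = 0.0644), Abcg1 at 0.39 ± 0.14 and Slc25a1 at −0.30 ± 0.13.

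In the hypothalamus the members showed little difference between TCDD and control. Of 25 tested members 0 passed, where 0.023% of probes did, and 0 members had an unadjusted p below 0.05, against 10.9% of probes. The median log2 fold change was −0.02 for sterol enzymes, 0.06 for fatty acid genes and 0.16 for the regulators, of which 4 of 4 were positive, against 0.00 over all probes, of which 50% were negative. Every TCDD array lay below every control for Acat2, Ebp and Idi1 and above for Acaca, 3 and 1 of 25 members, where 6.97% of probes did in each direction. With arrays scaled to a common median instead, the median of all probes here was −0.09 and that of sterol enzymes −0.17.

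Idi1 was the member of smallest p here. Its levels were 11.06, 10.94 and 11.03 in TCDD hypothalami, against 11.46, 11.55 and 11.22 in control hypothalami. The 3 TCDD arrays lay close together and below all controls, with an estimate of −0.40 ± 0.19 (limma adjusted p = 0.477). Ebp read 9.45, 9.49 and 9.46, against 9.62, 9.60 and 9.63 in controls, also without overlap (−0.15 ± 0.08, adjusted p = 0.534). Sqle overlapped, at 11.88, 11.86 and 11.97 against 11.86, 11.99 and 11.93 in controls (−0.02 ± 0.16). Msmo1 and Nsdhl stood at −0.12 ± 0.12 and −0.17 ± 0.17, and Hsd17b7 at 0.22 ± 0.15.

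Srebf1 read 8.49, 8.35 and 8.28 in TCDD hypothalami, against 7.84, 8.29 and 8.23 in control hypothalami, where 1 low control array widens the spread (0.25 ± 0.13, limma adjusted p = 0.540). Srebf2 read 6.89, 7.44 and 6.88, against 6.61, 6.66 and 7.16 in controls (0.26 ± 0.18), with overlap. Acaca read 6.80, 6.59 and 6.70, against 6.59, 6.41 and 6.52 in controls, a step of 0.19 ± 0.15. Scd did not separate, at 9.91, 10.12 and 10.09 against 9.99, 10.14 and 10.10 in controls (−0.04 ± 0.30). None of these estimates exceeded the spread between arrays by the test.

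The TCDD effect in the pituitary minus that in the hypothalamus was tested directly. Of 25 members 0 passed, where 0.2% of probes did, and 0 had an unadjusted p below 0.05, against 11.8% of probes. The smallest p belonged to Hsd17b7 (−0.44 ± 0.21, limma adjusted p = 0.430), whose estimates were −0.22 in the pituitary and 0.22 in the hypothalamus. Fads2 (−0.43 ± 0.22) and Srebf2 (−0.48 ± 0.25) followed. For Idi1 the difference was −0.25 ± 0.27, for Sqle −0.30 ± 0.22, for Srebf1 −0.17 ± 0.19 and for Scd −0.01 ± 0.43. The median difference was −0.16 for sterol enzymes, with 11 of 15 negative, and −0.03 for fatty acid genes, against 0.00 over all probes, of which 50.5% were negative. Without pituitary TCDD replicate 5 the pituitary estimates of Idi1 and Sqle were −0.92 and −0.56. Their hypothalamus estimates over all arrays were −0.40 and −0.02. Again 0 members passed for the difference without that array. A difference in TCDD response between the tissues was thus not shown for any member.

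The largest differences among members were between the tissues. In control fetuses 22 of 25 members were lower and 1 was higher in the pituitary than in the hypothalamus, where 69.5% of all probes passed, 35.9% lower and 33.7% higher (limma). The median log2 fold change of pituitary over hypothalamus was −1.55 for sterol enzymes, with 13 of 15 passing, and −1.32 for fatty acid genes, with 6 of 6 passing, against −0.05 over all probes. Without overlap, 23 of 25 members lay lower on all control pituitaries than on all control hypothalami (37.8% of probes) and 1 lay higher (35.5%). Across all 12 arrays, TCDD and control together, 21 members lay lower on every pituitary array than on every hypothalamus array (30.4% of probes). The pituitary also had less signal of 6 of 8 neuron markers and 6 of 6 radial glia and astrocyte markers. Their summed signals were 16339 to 22363 and 3201 to 6621 in control pituitaries, against 94843 to 103192 and 37902 to 39531 in control hypothalami, and the part of cell makeup in the members' difference was not tested.

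Cyp51 differed most among members in this fit. It read 5.58, 5.50 and 5.56 in control pituitaries, near background, against 8.31, 7.95 and 8.0 in control hypothalami (−2.54 ± 0.16, 5.81-fold lower, limma adjusted p = 3.31e-08). Fdps averaged 9.99 ± 0.03 in control pituitaries, against 12.06 ± 0.10 in control hypothalami (SD, n = 3 each), an estimate of −2.07 ± 0.24. Mvd read 9.54, 9.71 and 9.62, against 11.55, 11.57 and 11.87 in the hypothalamus (−2.04 ± 0.19). These groups of arrays are far apart, with no overlap in any of the genes. The order depends on the processing. With the authors' deposited normalized values Cyp51 stood at −0.63 ± 0.05, while Fdps and Mvd stood at −1.78 ± 0.21 and −1.66 ± 0.15.

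Fdft1 read 9.32, 9.56 and 9.23 in control pituitaries, against 11.46, 11.40 and 11.20 in control hypothalami (−1.98 ± 0.22). Nsdhl (−1.87 ± 0.17), Pmvk (−1.87 ± 0.18), Sqle (−1.55 ± 0.16) and Idi1 (−1.31 ± 0.19) were also lower in the pituitary. Among fatty acid genes, Aacs read 8.62, 9.05 and 9.02, against 10.71, 10.92 and 10.98 in the hypothalamus (−1.97 ± 0.19), and Scd read 7.99, 8.32 and 8.24, against 9.99, 10.14 and 10.10 (−1.89 ± 0.30). Fads2 (−1.59), Acaca (−1.05), Fads1 (−0.99) and Acly (−0.86) completed the list of fatty acid genes, all lower.

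Srebf1 was the 1 tested member of 25 with a positive estimate in this fit. It read 9.30, 9.21 and 9.03 in control pituitaries, against 7.84, 8.29 and 8.23 in control hypothalami, 1.06 ± 0.13 higher on the log2 scale (2.09-fold, limma adjusted p = 1.42e-05). Srebf2, in contrast, averaged 6.07 ± 0.15 in control pituitaries and 6.81 ± 0.31 in control hypothalami (SD, n = 3 each), 0.74 ± 0.18 lower in the pituitary (adjusted p = 0.00235). Scap (−1.16 ± 0.11) and Insig2 (−0.45 ± 0.11) were lower too. The members that did not pass were Ebp, at 9.50, 9.49 and 9.60 against 9.62, 9.60 and 9.63 in the hypothalamus (−0.09 ± 0.08, adjusted p = 0.348), and Tm7sf2 (−0.37 ± 0.17, 0.0630), whose dimmer probe did pass (−0.47 ± 0.18, 0.0360). With the authors' deposited normalized values in place of the intensities, Ebp also passed as higher in the pituitary (0.20 ± 0.03, limma adjusted p = 0.000371), and Sc5d stood at 0.04 ± 0.08. On those values Srebf1 stood at 0.85 ± 0.07 and Scap at −0.91 ± 0.09. Srebf2 shrank to −0.12 ± 0.05 (limma adjusted p = 0.0429), and Insig2, at −0.12 ± 0.08 (0.205), did not pass. There 2 of 25 members passed as higher and 20 as lower, where 39.3% of all probes were higher and 27.9% lower.

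The same contrast within TCDD fetuses was added after the data were seen. There 22 members were lower and 1 higher in the pituitary, where 70.2% of probes passed (36.8% lower, 33.4% higher), with medians of −1.66 for sterol enzymes and −1.49 for fatty acid genes. Without pituitary TCDD replicate 5 the medians were −1.93 and −1.72, again with 22 lower and 1 higher, where 68.7% of probes passed (35.2% lower, 33.5% higher). Srebf1 was 0.89 ± 0.13 higher with all TCDD arrays.

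**Figure D5:**
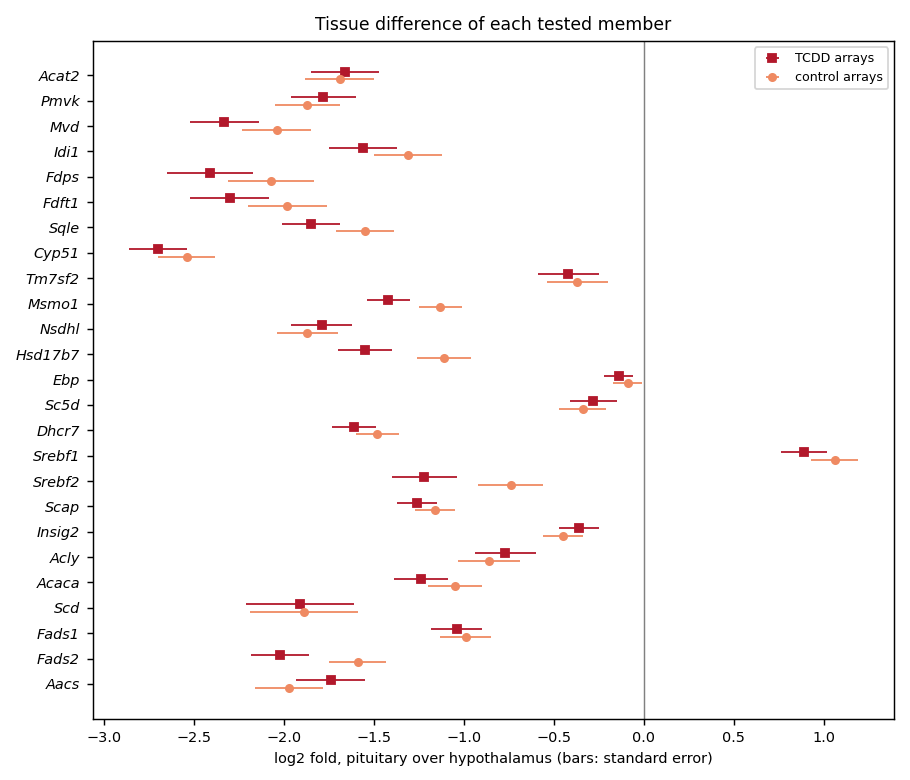
The log2 fold change of pituitary over hypothalamus with its standard error is shown for each tested member, on TCDD arrays and on control arrays. In this fit all members lie left of 0 except Srebf1, at 0.89 on TCDD arrays and 1.06 on control arrays, and Ebp lies closest to 0.

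Genes around the pathway were compared between the tissues in the same way. Of 13 tested genes for sterol uptake, transport and the liver X receptors, 8 were higher in control pituitaries and 1 was lower, where 33.7% of all probes were higher and 35.9% lower. Npc2, which hands cholesterol out of lysosomes, was 1.51 ± 0.10 higher (limma adjusted p = 4.47e-08), Abcg1 1.43 ± 0.12 and Mbtps1, the protease that makes the initial cleavage of SREBP, 1.25 ± 0.12. Nr1h3, a liver X receptor, was detected on every pituitary array and on no hypothalamus array, at least 1.80-fold higher. Of 9 other fatty acid genes 5 were lower in the pituitary, against the same 35.9% of probes, led by Slc25a1 (−2.41 ± 0.13) and Elovl2, an elongase of polyunsaturated fatty acids (−1.93 ± 0.17). Of 3 other sterol genes, Ggps1, which makes geranylgeranyl diphosphate, was lower (−1.35 ± 0.11), Cyp46a1, which turns over cholesterol in neurons, was detected on 2 of 3 control hypothalami and 0 pituitaries, and Acat1, the mitochondrial thiolase, was higher (0.41 ± 0.10).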

How the data were processed

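Expression was measured on 12 arrays in 4 groups of 3. The deposited table holds per the file headers, 1 non-normalized bead intensity for each probe and array, and a detection p-value deposited with it. Background handling by the scanner software and the build behind the probes are not given in the sources used here. The authors also deposited values resembling log2, whose exact transform, centring and scale are unknown, and these served as an alternative. Symbols came from the platform annotation, with 1 symbol for 13793 of 22523 probes, several for 0 and none for 8730, which are unnamed here.

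Intensities were background-corrected with neqc of limma 3.58.1 (R 4.3.3, offset 16), quantile-normalized over 12 arrays and put on a log2 scale. The offset pulls folds of dim probes towards 0. A probe entered the tests when at least 3 arrays gave it a detection p below 0.05 (13018 kept, 9505 left out), in 1 limma fit of 4 group means without covariates, with 8 residual and 4.19 prior degrees of freedom, two-sided, and Benjamini-Hochberg adjustment over all tested probes, threshold 0.05. A gene with several probes is represented by the one of highest mean signal. An "at least" fold divides the bright group's mean by a floor for the undetected group, taken on each array as the dimmest detected probe's signal or, if larger, the gene's own.

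Simulated pituitary TCDD changes over 13018 probes were recovered in 40.9% at 0.5, 88.1% at 1 and 100% at 2 log2 units. The simulated noise was independent between probes and alike on all arrays, unlike that of pituitary TCDD replicate 5. These rates thus do not give the power for the members. Raw medians ran from 92.5 to 120.8 intensity units. Alternatives were no background correction, median scaling, other filters, the authors' values, array weights, replicate number as a block, each tissue alone, probe averaging and leaving out each array. Members, lists and markers were chosen with earlier results of these data known. Values on every array are given for members that passed, up to 8 per direction, or for the 4 of smallest p per direction, and for Sqle, Idi1, Srebf1, Srebf2 and Scd. Other members' values add to these.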

Additional observations from a re-analysis of the deposited data

Results flagged for a closer look

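Among the 26 of 13018 probes that passed for the difference of TCDD effects between the tissues was that of Cyp1a1, which lies outside the pathway, at 6.28 ± 0.17 on the log2 scale (pituitary minus hypothalamus, limma adjusted p = 9.42e-10). Its levels averaged 11.34 ± 0.24 in TCDD pituitaries and 4.94 ± 0.08 in control pituitaries, against 4.95 ± 0.09 in TCDD hypothalami and 4.83 ± 0.10 in control hypothalami (SD, n = 3 each). It was detected on 3 of 3 TCDD pituitaries and on 0 of the other 9 arrays, so the value is the fit's estimate and not a bound. Among the 25 tested members 0 had a difference of this kind that passed.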

How the results depend on the processing

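Members that passed in the pituitary for TCDD numbered 0 to 3 on leaving out 1 array, 3 only without TCDD replicate 5, and 2 with array weights; in the hypothalamus and for the difference between tissues they numbered 0 throughout, and between tissues 22 to 24. Leaving out 1 array, medians ranged for sterol enzymes from −0.40 to −0.04 (pituitary), −0.06 to −0.01 (hypothalamus) and −1.57 to −1.51 (tissues), and for fatty acid genes from −0.23 to 0.16, −0.03 to 0.11 and −1.35 to −1.26. The tissue median of sterol enzymes was −1.51 without background correction, −1.69 with median scaling, −1.0 with the authors' values and −1.66 on TCDD arrays, and that of fatty acid genes −1.08, −1.23, −0.54 and −1.49, and −1.05 without the filter. The hypothalamus median of sterol enzymes was −0.17 with median scaling and −0.07 with array weights, and that of fatty acid genes −0.10 with median scaling. The cause of these shifts was not tested.

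The labels do not say whether same-numbered samples of a treatment share a dam. Between the tissues, their arrays had deviations correlated at 0.02 for control replicates 1 and 3 and −0.02 for TCDD replicate 1. Over all same-numbered pairs the range was −0.07 to 0.14, but both ends pair a TCDD with a control sample, which cannot share a dam. With replicate number as a replicate block, the tissue medians were −1.41 (sterol) and −1.23 (fatty acid) with 22 members passing, the hypothalamus sterol median was 0.05, and estimates turned sign for Sqle (0.05) and Scd (0.17) in the hypothalamus and for Aacs (−0.02), Acly (−0.06) and Nsdhl (−0.01) in the difference between tissues. The block changed no other direction of a named member. It joins TCDD and control samples of the same number, so it does not stand for dams. With treatment and replicate number together as the block, the estimated correlation within blocks was 0.055. Slide as a block was not run, since the labels and files give none.

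Other reversals concern estimates that did not pass with all arrays, apart from that of Sc5d between tissues, at 0.04 with the authors' values, where Ebp turned to 0.20 and passed. In the pituitary Acly, Acaca and Pmvk turned to −0.16, −0.20 and −0.08 without TCDD replicate 5. Scd in the pituitary, −0.55 without TCDD replicate 5, turned to 0.01 with the authors' values, 0.20, 0.19 and 0.02 without TCDD replicates 1 and 2 and control replicate 2. Its difference between tissues turned to 0.02 without background correction, 0.19 with median scaling, 0.04 with the authors' values, 0.24 and 0.23 without pituitary TCDD replicates 1 and 2, and 0.01 to 0.05 without single other arrays, with −0.51 as its lowest, without pituitary TCDD replicate 5. In the hypothalamus Scd turned to 0.02 without TCDD replicate 1 (lowest −0.08) and Sqle to 0.00 and 0.01 without TCDD or control replicate 3. The difference between tissues turned for Idi1 to 0.04 with median scaling, for Insig2 to −0.02 without pituitary TCDD replicate 1 (pituitary estimate −0.01), and without replicate 5 for Aacs (−0.02, up to 0.39 without another array), Acly (−0.15, up to 0.29) and Nsdhl (−0.13, up to 0.30). Median scaling moves the median of all probes to 0.11 in that difference. Of tissue calls over all probes 51.6% were lower, and 41.6% with the authors' values, which called 218 probes in the pituitary (56.9% lower) against 87 (42.5% lower).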
